A study of Saccharomyces cerevisiae with 14 samples.

Results

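Lager yeast strain CB11 was sampled from a brewery fermentation, and the comparison described here sets the 3 arrays of 80 h against the 3 arrays of 8 h, counted from the moment when the yeast was pitched into the wort. The 6 arrays were taken from 14 in the series by the time in their labels. The other 8 (30, 60 and 102 h) shared in the normalization, the background level, the choice of probe sets tested and the estimate of the spread. They also served as neighbouring times. Members of the comparison were the 5498 probe sets, of 10928 on the Affymetrix Yeast Genome 2.0 array, that are annotated to 1 of 5449 Saccharomyces cerevisiae genes. Of these, 5338 were above background on at least 2 arrays of some time and were tested, and 160 were not.

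Both groups were the same strain, in the same wort and the same vessel, and the labels give no difference other than time. The wort was made from 85% malt and 15% sugar adjunct with 0.2 mg/L zinc sulphate, and was oxygenated to 25 mg/L before it filled a vessel of 3275 hL in stages. The 8 h samples were drawn 5 h after the last oxygenated wort went in, and the yeast had already served in earlier fermentations. With 1 vessel sampled, and no label that makes the replicates independent cultures, the p-values cover the spread among these arrays, part or all of which may be technical. Lager yeast is a species hybrid, and a probe set may bind transcripts from either parental genome. In bulk samples, fewer cells that express a gene and less RNA per cell cannot be told apart.

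In a brewery fermentation yeast first meets wort rich in oxygen and sugars. It uses the oxygen for sterols and unsaturated fatty acids, buds for a few generations while it takes up glucose, maltose and nitrogen, and then stops dividing while the remaining sugars are fermented. Glucose represses the genes for other carbon sources, for respiration and for gluconeogenesis, the making of sugar phosphates from smaller molecules. The Msn2 and Msn4 factors drive a general stress programme in cells that slow their growth. Growing yeast also spends much of its transcription on ribosomes, in separate sets of genes for the ribosomal proteins and for the factors that assemble them.

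One of the 8 h arrays stood apart. The array's control transcripts are probed at both ends, and the mean log2 ratio of 5-prime to 3-prime signal over 6 of them was -3.30 on 8 h replicate 1, against -0.74 on each of the other 8 h arrays and -0.45 to -0.69 on the 80 h arrays. Over the tested probe sets its log2 signal correlated at 0.944 and 0.943 with the other 8 h arrays, which correlated at 0.994 with each other, and the 80 h arrays correlated at 0.987 to 0.993. The deposited signal of an 18S rRNA control was 179, 860.3 and 1381 on the 8 h arrays and 5394, 3496 and 6516 on the 80 h arrays, and its part in the results was not tested. The results are therefore given with all arrays and, in square brackets, without 8 h replicate 1.

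Nearly as many transcripts were higher as lower at 80 h. With limma's moderated test on quantile-normalized log2 signal and a Benjamini-Hochberg adjusted p under 0.05, 1230 probe sets (23.0% of those tested) were higher and 1383 (25.9%) were lower, together 49.0%. Without 8 h replicate 1 the counts were 1226 (23.0%) and 1253 (23.5%). Both fits called 1086 higher and 1148 lower, and 0 in opposite directions. With all arrays, 84 probe sets were at least 4-fold higher and 53 at least 4-fold lower. The arrays of both times did not overlap for 63.4% of all probe sets tested. They did not overlap for 1211 of the 1230 called higher and 1368 of the 1383 called lower. The largest rises and falls below were named only among such genes. Arrays that do not overlap are therefore no added support for a gene that passed. The split depended on scaling: on the deposited scale, where the median difference lay 0.18 higher on the log2 scale, 64.8% of called probe sets were higher (1567 against 853), against 47.1% with normalization. Levels below are normalized signal, on a linear scale, differences are log2 of 80 h over 8 h with the standard error of the fit, and a gene is said to have risen or fallen only where it passed the test. A value in square brackets is the same difference, fold, count or median without 8 h replicate 1, and a gene given a value that lost or gained its call without that array is said to have done so. For lists whose count of rises or falls moved by over 1.5 times on the deposited scale, or with each array centred on the median of its S. cerevisiae probe sets in place of quantile normalization, those counts are given too. A list's share of rises or falls is to be read beside the 23.0% higher and 25.9% lower over all probe sets tested.

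**Figure D1:**
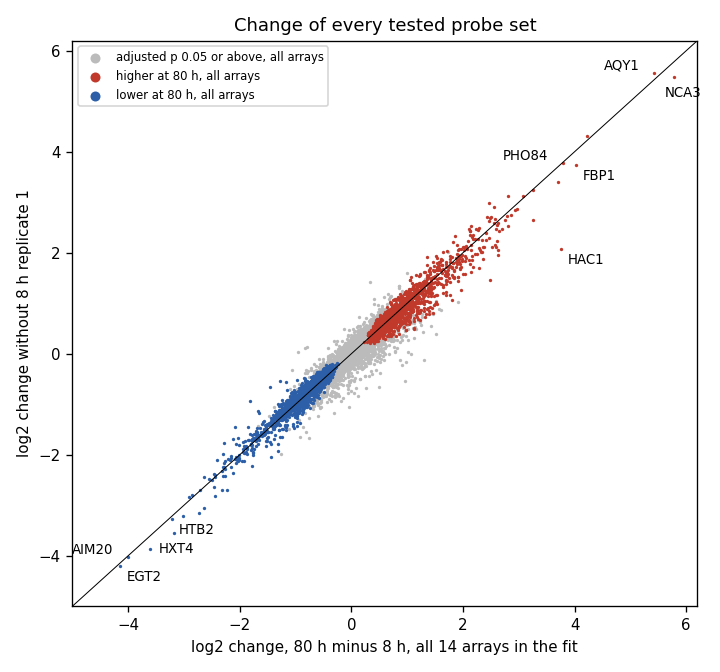
Log2 difference of each of the 5338 tested probe sets between 80 h and 8 h, with all arrays (horizontal axis) and without 8 h replicate 1 (vertical axis). Points are coloured by the call with all arrays, and the line marks equal values. NCA3 and AQY1 lie at the upper end and EGT2 and AIM20 at the lower end in both, while HAC1 falls away from the line, from 3.75 to 2.07.

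The largest rise was that of NCA3, a SUN-family gene whose product is tied to the cell wall and mitochondria. Its signal was 78.3, 144 and 154 on the 8 h arrays in replicate order and 6324, 7011 and 6567 on the 80 h arrays. All 80 h arrays were far above all 8 h arrays, and the log2 difference was 5.79 ± 0.47 [5.48] (adjusted p = 1.9e-06). AQY1, a water channel known from spores and from freeze tolerance, stood at 33.3, 22.8 and 26.3 at 8 h and 1565, 1080.1 and 926 at 80 h, a log2 difference of 5.42 ± 0.64 [5.57] (adjusted p = 2.35e-05). PMA2, the second gene for the plasma membrane proton pump, went from 40.1, 73.3 and 74.8 to 782, 821 and 746, and rose by 13.0-fold [10.6] (adjusted p = 0.000356). Its 80 h arrays were close together, while its 8 h replicate 1 was the lowest of the 8 h arrays. The uncharacterised reading frames YHR033W (3.26 ± 0.58 [2.65]) and YGR079W (3.07 ± 0.21 [3.11]) were also among the 12 largest rises.

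The largest fall was that of EGT2, a glycosidase-like gene expressed as daughter cells leave mitosis. It stood at 1123, 1225 and 1311 at 8 h and at 66.1, 71.3 and 68.0 at 80 h. Neither time showed an array near the other group, and the log2 difference was -4.15 ± 0.24 [-4.21] (adjusted p = 4.06e-07). AIM20 followed, from 626, 679 and 638 to 36.5, 41.5 and 44.0, a fall of 16.0-fold [16.2] (adjusted p = 4.17e-07). SRL1, a cell wall mannoprotein, fell by 3.17 ± 0.36 [3.54] on the log2 scale, HST3, a histone deacetylase of the sirtuin family, by 2.92 ± 0.26 [2.83], and MMR1, which carries mitochondria into the bud, by 2.73 ± 0.32 [3.16]. The hexose carrier HXT4, the histone HTB2, the chaperone SSA2 and DAL7 of the glyoxylate pathway were also among the 12 largest falls and are described with their groups.

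**Figure D2:**
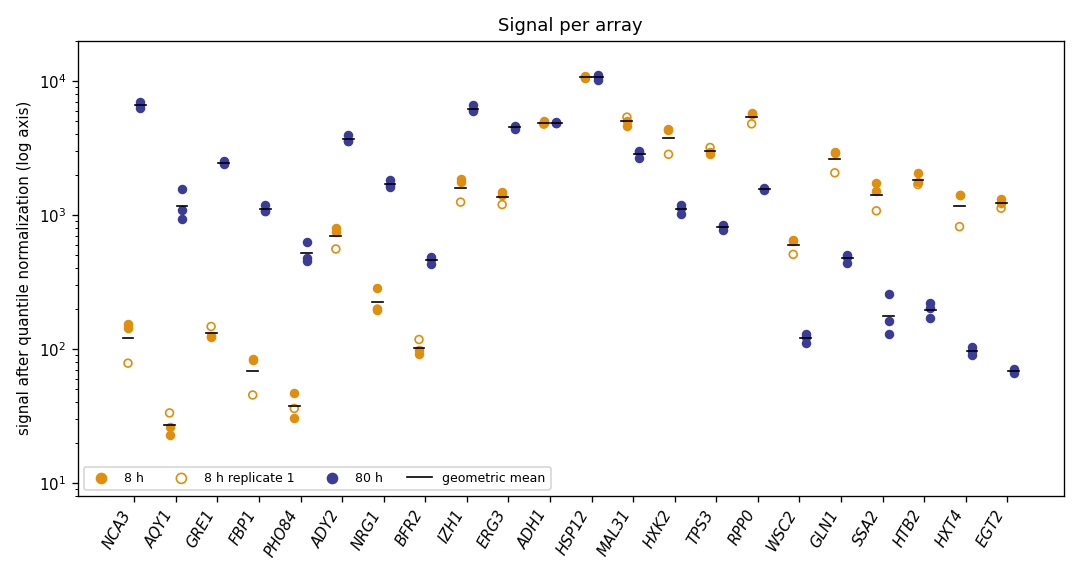
Normalized signal (log axis) of 22 named genes on each 8 h array (orange, open for replicate 1) and each 80 h array (dark blue), with the geometric mean as a bar. NCA3 lies at 78.3, 144 and 154 at 8 h and 6324, 7011 and 6567 at 80 h, EGT2 the other way round, and ADH1 and HSP12 lie at nearly the same level at both times on this scale. Heights are comparable between arrays for 1 gene, not between genes.

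Genes that assemble ribosomes rose, while those for the ribosomal proteins fell. The 45 gene lists hold 1563 entries, of which 1522 had a probe set and 1496 were tested. Of 123 tested genes for ribosome biogenesis, 88 [84] rose and 0 [3] fell (71.5% and 0%, against 23.0% higher and 25.9% lower over all probe sets tested), and without 80 h replicate 1 a single gene fell. The list's median log2 difference was 0.72 [0.69], against -0.03 over all probe sets tested. Set against the mean of the 8 h arrays, its median on single arrays was -0.00, 0.03 and -0.01 at 8 h and 0.71, 0.77 and 0.70 at 80 h. BFR2, a factor of the small subunit processome, rose from 118, 98.9 and 91.9 to 433, 469 and 486, a difference of 2.18 ± 0.16 [2.28] (adjusted p = 9.92e-07). All of its 80 h arrays were above all of its 8 h arrays. RRS1, a factor of the large subunit's assembly, rose by 2.21 ± 0.19 [1.98], NSA2, another such factor, by 1.95 ± 0.19 [1.70], and REI1, which acts on the large subunit in the cytoplasm, by 1.57 ± 0.17 [1.70]. RRP8, a methyltransferase of 25S rRNA, rose by 1.55 ± 0.18 [1.72]. TIF6, which holds back joining of the subunits, rose by 2.62 ± 0.41 with all arrays and by 1.96 (adjusted p = 3.58e-05) without 8 h replicate 1, where it was lowest.

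Of 127 tested genes for cytosolic ribosomal proteins, 0 [0] rose and 102 [93] fell (80.3%), with a median of -0.85 [-0.84]. On single arrays the list's median lay at 0.06, -0.01 and -0.02 at 8 h and at -0.79, -0.80 and -0.87 at 80 h. The stalk protein gene RPP0 stood at 4785, 5657 and 5729.7 at 8 h and at 1595, 1561 and 1525 at 80 h, and fell by 1.78 ± 0.23 [1.87] on the log2 scale (adjusted p = 3.86e-05). RPS7B fell from 1547, 2130.2 and 2172 to 435, 403 and 371, by 2.26 ± 0.25 [2.42] (adjusted p = 1.71e-05). The groups did not overlap for either gene. RPL4B, RPL22B, RPL31B and RPS22A fell by 2.30 ± 0.41 [1.98], 2.16 ± 0.41 [2.03], 2.15 ± 0.25 [2.24] and 1.91 ± 0.28 [1.74]. Several of these belong to pairs of near-identical copies, whose probe sets may bind both transcripts. Mitochondrial ribosomal proteins fell in 32 [31] of 65 tested genes and rose in 2 [2] (49.2% and 3.08%, against 25.9% and 23.0% over all probe sets). The median was -0.50 [-0.39] (15 fell and 4 rose on the deposited scale, median -0.29, and 35 and 1 with centred arrays, median -0.52). MRPL19 fell from 708, 457 and 426 to 167, 147 and 166, by 1.69 ± 0.19 [1.47] (adjusted p = 1.51e-05), and MRPL3, MRPL17, MRPL22 and RSM19 fell by 1.12 ± 0.13 [1.16], 1.13 ± 0.13 [1.02], 1.03 ± 0.24 [0.89] and 1.03 ± 0.13 [0.94]. MRPS18 rose by 1.17 ± 0.34 with all arrays and missed the threshold once 8 h replicate 1 was left out (0.77, adjusted p = 0.0502). The number of risen mitochondrial genes was 1 without 80 h replicate 2 or replicate 3.

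Of 52 tested tRNA synthetases and translation factors, 26 [26] fell and 5 [4] rose (50.0% and 9.62%, against 25.9% and 23.0% over all probe sets). The median was -0.40 [-0.49] (17 fell and 7 rose on the deposited scale, median -0.24). TYS1, the tyrosyl-tRNA synthetase, fell from 1031, 897 and 839 to 278, 266 and 259, by 1.78 ± 0.14 [1.70] (adjusted p = 1.23e-06). SUI2, the alpha subunit of initiation factor eIF2, fell by 1.71 ± 0.18 [1.73], the glutaminyl-tRNA synthetase GLN4 by 1.34 ± 0.20 [1.15], and ANB1, the hypoxic form of eIF5A, by 1.24 ± 0.17 [1.10]. FRS1 and FRS2, the subunits of phenylalanyl-tRNA synthetase, fell by 1.10 ± 0.15 [1.12] and 1.17 ± 0.29 [1.45]. Among 34 genes for RNA polymerases I and III, 8 [10] rose and 4 [4] fell, near or below the 23.0% and 25.9% over all probe sets (13 rose and 3 fell on the deposited scale, median 0.44). RPC19, a subunit of both enzymes, rose by 1.24 ± 0.22 [1.20], the polymerase I subunits RPA49 and RPA12 by 1.14 ± 0.19 [0.94] and 1.10 ± 0.27 [1.14], and TFC3, part of the polymerase III factor TFIIIC, fell by 0.82 ± 0.18 [0.76].

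Genes of the dividing cell were lower at 80 h. All 10 tested histone genes fell (100%, against 25.9% over all probe sets), with a median of -0.89 [-0.92], and all 10 did so without 8 h replicate 1. HTB2, for histone H2B, stood at 1686, 1746 and 2039 at 8 h and at 221, 201 and 171 at 80 h, and fell by 3.21 ± 0.30 [3.26] on the log2 scale (adjusted p = 5.08e-06). HTB1, the other H2B gene, fell by 1.15 ± 0.14 [1.07], from 6324, 5142 and 5425 to 2422, 2583 and 2569. The 80 h arrays were below the 8 h arrays for both, and the fall of HTB2 was the larger. HTA1 for H2A, HHT2 for H3, HHO1 for the linker histone and HTZ1 for the H2A variant fell by 0.92 ± 0.16 [0.96], 0.87 ± 0.16 [0.94], 0.91 ± 0.16 [0.91] and 1.10 ± 0.18 [1.05].

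Of 63 tested genes for mitosis and cytokinesis, 39 [38] fell (61.9%) and 4 [4] rose, with a median of -0.93 [-0.84]. Beside EGT2 they included the septum's chitin synthase CHS2, which fell from 146, 371 and 332 to 43.7, 42.7 and 40.0, by 2.64 ± 0.45 [3.06] (adjusted p = 0.000402). HOF1, a protein of the bud neck, fell from 290.5, 196 and 178 to 38.2, 35.3 and 30.7, by 2.65 ± 0.41 [2.43] (adjusted p = 0.000198). For both genes every 80 h array was below every 8 h array. The daughter-cell glucanases SCW11 and DSE4, which part mother and daughter, fell by 2.44 ± 0.22 [2.44] and 2.40 ± 0.36 [2.11], the factor SWI5, which activates genes at the end of mitosis, by 2.44 ± 0.65 [2.41], and the mitotic cyclin CLB2 by 1.65 ± 0.30 [1.70].

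The list for the start of the cycle and DNA replication was more divided. Of 56 tested genes, 20 [15] fell and 10 [9] rose (35.7% and 17.9%, against 25.9% and 23.0% over all probe sets). The median was -0.30 [-0.23] (11 fell and 11 rose on the deposited scale, median -0.04). The G1 cyclin CLN2 fell from 177, 238 and 247 to 98.5, 76.6 and 61.8, by 1.49 ± 0.26 [1.64] (adjusted p = 0.000377). CDC21, thymidylate synthase, fell by 1.51 ± 0.28 [1.66], the cyclin kinase inhibitor SIC1 by 1.36 ± 0.16 [1.40], and RFC5, of the clamp loader, by 1.28 ± 0.27 [1.28]. SWI4, the DNA-binding part of the factor that drives G1 genes, rose from 27.5, 18.7 and 21.8 to 92.9, 72.3 and 90.3, by 1.92 ± 0.26 [2.07] (adjusted p = 6.54e-05), with 1 of its 3 arrays above background at 8 h. CLN3, the first cyclin of G1, rose by 1.37 ± 0.37 with all arrays and by 0.91 (adjusted p = 0.0276) without 8 h replicate 1, its lowest array. SWI4 and CLN3 thus rose while CLN2 fell.

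**Figure D3:**
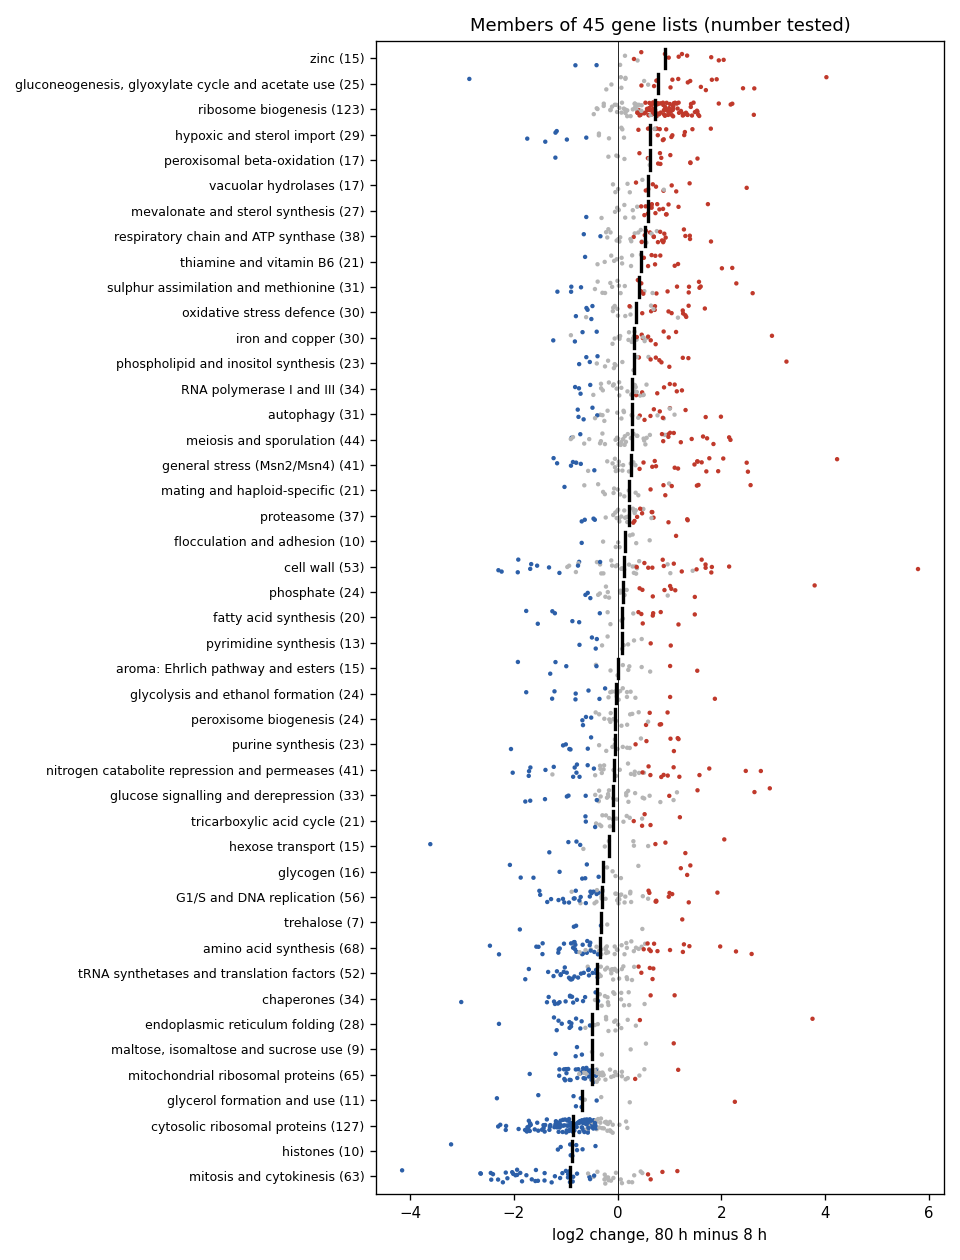
Log2 difference between 80 h and 8 h of each tested member of 45 gene lists, ordered by the list's median (black bar), with the number tested in brackets. Red points rose, blue points fell, and grey points did not pass. Zinc, gluconeogenesis and ribosome biogenesis lie at the top with medians of 0.91, 0.77 and 0.72, and histones and mitosis at the bottom with -0.89 and -0.93.

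Hexose carriers changed in both directions, at shares near those of all probe sets. Of 15 tested, 4 [4] rose and 5 [4] fell (26.7% and 33.3%, against 23.0% and 25.9% over all probe sets), with a median of -0.17 [-0.10] that turned to 0.02 on the deposited scale. HXT4, a carrier induced by low glucose, stood at 817, 1417 and 1402 at 8 h and at 90.3, 103 and 96.0 at 80 h, and fell by 3.61 ± 0.53 [3.87] on the log2 scale (adjusted p = 0.000118). HXT1, a low-affinity carrier induced by high glucose, fell by 1.32 ± 0.22 [1.37], and HXT3, another low-affinity carrier, by 0.95 ± 0.17 [1.14]. HXT5, a carrier known from slowly growing and starved cells, rose from 196, 179 and 174 to 753, 721 and 805, by 2.05 ± 0.24 [2.10] (adjusted p = 2.09e-05). Its 80 h arrays lay far above its 8 h arrays, opposite to HXT4. HXT17 also rose, by 0.92 ± 0.30 [1.07], and HXT10, which was below background on all 8 h arrays, rose at least 1.17-fold. The call of HXT17, whose probe set may bind transcripts of near-identical genes, was lost without any 1 of the arrays other than 8 h replicate 1 and 80 h replicate 3. That of HXT10 was lost without 8 h replicate 2, 8 h replicate 3 or 80 h replicate 3, and on the deposited scale. The number of risen genes was 1 without 8 h replicate 2 and 2 without 8 h replicate 3 or without 80 h replicate 2.

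Of 9 tested genes for maltose, isomaltose and sucrose, 4 [5] fell and 1 [1] rose (44.4% and 11.1%, against 25.9% and 23.0% over all probe sets). The median was -0.50 [-0.49] (3 fell and 2 rose on the deposited scale, median -0.25). MAL31, the maltose permease, stood at 5369, 5036 and 4613 at 8 h and 2651, 2976 and 2939.6 at 80 h, and fell by 0.81 ± 0.10 [0.76] (adjusted p = 4.58e-05). MAL32, the maltase, fell by 0.78 ± 0.10 [0.71], from 9609, 8274 and 8274 to 5036, 5067 and 5047. Both genes remained bright at 80 h. IMA1, an isomaltase, fell by 1.20 ± 0.10 [1.20], and the maltose permease relative MPH2 by 0.69 ± 0.18 [0.77]. On the deposited scale MAL32 differed by -0.43 and MPH2, at -0.43, did not pass. MAL11, a permease that also takes up other glucosides, rose from 224, 347 and 404 to 611, 680.4 and 714, by 1.08 ± 0.25 [0.83] (adjusted p = 0.00332). SUC2, the invertase, stood at 5106, 7761 and 7228 and 5485, 5465 and 5067, a difference of -0.31 ± 0.14 that did not pass (adjusted p = 0.086). Without 8 h replicate 1 SUC2 passed as lower, at -0.49 (adjusted p = 0.00281).

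Among 33 tested genes of glucose signalling, 4 [4] rose and 7 [7] fell, both below the shares over all probe sets. NRG1 and NRG2, repressors of glucose-repressed genes, were the leading rises. NRG1 rose from 198, 196 and 284 to 1682, 1606 and 1812, by 2.93 ± 0.21 [2.85] (adjusted p = 9.9e-07), and NRG2 from 117, 126 and 126 to 826, 763 and 703, by 2.64 ± 0.25 [2.60]. Their arrays did not overlap. MIG2, a repressor induced by glucose, fell by 1.78 ± 0.40 [2.22], RAS2, of the cAMP pathway, by 1.68 ± 0.15 [1.60], and GAL83, a subunit of the Snf1 kinase complex, by 1.40 ± 0.18 [1.32]. The kinase gene SCH9 rose by 1.54 ± 0.43 [0.98]. HAP4, the activator of respiration genes, and CAT8, the activator of gluconeogenesis genes, did not pass, with differences of 1.08 ± 0.46 [0.61] (adjusted p = 0.0667) and 0.34 ± 0.18 [0.31] (adjusted p = 0.147). HAP4 stood at 675, 1976 and 1603 at 8 h and 2778, 2670.3 and 2705 at 80 h, lowest on 8 h replicate 1. It passed in a fit of the arrays of both times alone (adjusted p = 0.038), in one blocked on replicate number (adjusted p = 0.0329) and with the 5-prime to 3-prime ratio as a covariate (0.46, adjusted p = 0.00475).

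Of 24 tested genes for glycolysis and ethanol formation, 2 [2] rose and 8 [7] fell (8.33% and 33.3%, against 23.0% and 25.9% over all probe sets). The median was -0.04 [-0.11] (6 rose and 4 fell on the deposited scale, median 0.26), and 0.03 with centred arrays. ADH1, the main fermentative alcohol dehydrogenase, stood at 4759, 4871 and 4996 at 8 h and 4928, 4832 and 4832 at 80 h, a difference of -0.00 that did not pass (adjusted p = 0.985). PDC1, the main pyruvate decarboxylase, and HXK1, a hexokinase, did not pass either, at -0.18 ± 0.09 [-0.13] and -0.05 ± 0.08 [-0.06]. HXK2, the hexokinase of glucose-rich growth, fell from 2833, 4412 and 4268 to 1192, 1135 and 1011, by 1.76 ± 0.32 [1.97] (adjusted p = 0.000523). PFK1, for phosphofructokinase, and PYK2, the minor pyruvate kinase, fell by 1.22 ± 0.14 [1.30] and 1.26 ± 0.14 [1.24]. PDC6 and PDC5, the minor pyruvate decarboxylases, rose by 1.87 ± 0.31 [1.71] and 1.01 ± 0.21 [0.80]. The number of fallen genes was 5 without 8 h replicate 2 or without 80 h replicate 3.

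Of 25 tested genes for gluconeogenesis, the glyoxylate cycle and acetate use, 16 [14] rose (64.0%) and 1 [1] fell, with a median of 0.77 [0.71]. On single arrays the list's median was -0.04, 0.05 and 0.07 at 8 h and 0.87, 0.74 and 1.02 at 80 h. FBP1, fructose-1,6-bisphosphatase, stood at 45.3, 84.1 and 82.6 at 8 h and 1066, 1068 and 1184 at 80 h, and rose by 4.02 ± 0.39 [3.73] (adjusted p = 6.71e-06). PCK1, phosphoenolpyruvate carboxykinase, rose from 128, 121 and 127 to 401, 412 and 409, by 1.70 ± 0.14 [1.71] (adjusted p = 1.92e-06). Both enzymes belong to gluconeogenesis alone, and their arrays did not overlap. ADY2, an acetate carrier, rose from 557, 749 and 805 to 3592, 3574 and 3966, by 2.41 ± 0.26 [2.26], and ATO2, its relative, by 1.91 ± 0.49 [1.43]. ACS1, the acetyl-CoA synthetase of derepressed cells, rose by 1.40 ± 0.27 [1.67], ADH2, which oxidises ethanol, by 1.60 ± 0.25 [1.39], SFC1, the mitochondrial succinate and fumarate carrier, by 1.81 ± 0.27 [1.80], and CRC1, the carnitine carrier, by 2.63 ± 0.50 [2.05]. ICL1, isocitrate lyase of the glyoxylate cycle, stood at 107, 132 and 126 and 214, 157 and 181 and did not pass, at 0.59 ± 0.23 [0.50] (adjusted p = 0.0525), though it did on the deposited scale (0.85) and in fits of the arrays of both times alone (adjusted p = 0.0173) and blocked on replicate number (adjusted p = 0.0414). Also not passed were CIT2, the peroxisomal citrate synthase, at -0.12 ± 0.13 [-0.13], and JEN1, the lactate carrier, at 0.06 ± 0.11 [0.04]. The one member that fell was DAL7, a malate synthase of allantoin breakdown, from 945, 917 and 750.5 to 105, 148 and 109, by 2.86 ± 0.33 [2.79] (adjusted p = 2.22e-05).

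Among 38 tested respiratory genes (the electron transport chain and ATP synthase), 19 [19] rose (50.0%) while 2 [2] fell (23 rose and 0 fell on the deposited scale, median 0.63, and 12 and 2 with centred arrays, median 0.40). The median was 0.53 [0.50]. INH1, an inhibitor of ATP hydrolysis by the ATP synthase, rose from 1155, 883 and 921 to 3421, 3138 and 3675, by 1.80 ± 0.17 [1.92] (adjusted p = 6.46e-06). ATP17, of the same enzyme, rose by 1.30 ± 0.16 [1.41], and COX4 and COX9, of cytochrome oxidase, by 1.28 ± 0.15 [1.10] and 0.92 ± 0.14 [0.94]. COX5A, the aerobic form of subunit 5 of that oxidase, stood at 681, 2422 and 2334 at 8 h and 4036, 4100.0 and 4222 at 80 h. Its difference was 1.39 ± 0.40 with all arrays and 0.79 (adjusted p = 0.0215) without 8 h replicate 1. RIP1, the Rieske protein of complex III, passed with all arrays (1.39 ± 0.47) and not without 8 h replicate 1 (0.85, adjusted p = 0.117), and lost its call as well without any 1 of the 80 h arrays. The number of fallen genes was 1 without 8 h replicate 2, 8 h replicate 3 or 80 h replicate 1, and 0 without 80 h replicate 2.

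The tricarboxylic acid cycle gave 5 [5] rises and 3 [4] falls among 21 tested genes. These were 23.8% and 14.3%, near and below the 23.0% and 25.9% over all probe sets. The list's median of -0.09 [-0.24] turned to 0.02 on the deposited scale (3 rose and 5 fell with centred arrays, median -0.21). SDH3 and SDH4, membrane anchors of succinate dehydrogenase, rose by 0.47 ± 0.10 [0.43] and 0.52 ± 0.14 [0.34]. LAT1, of pyruvate dehydrogenase, and FUM1, fumarase, fell by 0.62 ± 0.14 [0.49] and 0.61 ± 0.16 [0.68]. FUM1 did not pass on the deposited scale, at -0.42, nor SDH3 with arrays centred on the S. cerevisiae median, at 0.28. SDH2 passed at 1.20 ± 0.41 with all arrays, and did not without 8 h replicate 1 (0.69, adjusted p = 0.113) or without any 1 of the 80 h arrays. The number risen was 2 or 3 without 8 h replicate 2 or any 1 of the 80 h arrays.

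Peroxisomal beta-oxidation, the breakdown of fatty acids, rose in 10 [10] of 17 tested genes (58.8%) and fell in 1 [1], with a median of 0.62 [0.58]. CTA1, the peroxisomal catalase, rose from 844, 947 and 960.1 to 2605, 2543 and 2833, by 1.54 ± 0.18 [1.48] (adjusted p = 2.52e-05). IDP3, which supplies NADPH there, rose by 1.40 ± 0.16 [1.37], DCI1, an isomerase relative, by 1.40 ± 0.28 [1.23], the oleate factor PIP2 by 1.01 ± 0.13 [1.12] and the multifunctional enzyme FOX2 by 0.84 ± 0.21 [0.97]. SPS19, a dienoyl-CoA reductase also made in sporulation, fell by 1.20 ± 0.28 [1.16]. Peroxisome biogenesis genes rose in 5 [6] and fell in 4 [3] of 24, both below the shares over all probe sets (8 rose and 0 fell on the deposited scale, median 0.20). PEX5, the import receptor for most peroxisomal enzymes, rose by 0.84 ± 0.14 [0.90] and PEX28 by 0.96 ± 0.21 [0.86]. The 4 falls became 2 without 80 h replicate 1 and 1 without 80 h replicate 3.

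Of 7 tested trehalose genes, 4 [3] fell and 1 [2] rose (57.1% and 14.3%, against 25.9% and 23.0% over all probe sets). The median was -0.32 [-0.32] (3 fell and 2 rose on the deposited scale, median -0.17). TPS3, a regulatory subunit of trehalose synthase, stood at 3186, 2872 and 2954 at 8 h and 777, 834 and 828 at 80 h, and fell by 1.88 ± 0.13 [1.84] (adjusted p = 7.31e-07). TPS2, the phosphatase, and TSL1, the other regulatory subunit, fell by 0.84 ± 0.14 [0.87] and 0.80 ± 0.12 [0.77]. TPS1, the synthase itself, did not pass, at -0.20 ± 0.21 [-0.32] (adjusted p = 0.45), but did as lower without the 3 low 5-prime arrays of the series (-0.32). NTH2, a trehalase relative, rose from 267, 371 and 384 to 757, 788 and 845, by 1.24 ± 0.23 [1.08] (adjusted p = 0.000745).

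Of 16 tested glycogen genes, 8 [6] fell and 3 [2] rose (50.0% and 18.8%, against 25.9% and 23.0% over all probe sets). The median was -0.29 [-0.21] (5 fell and 4 rose on the deposited scale, median -0.29). GSY1, a glycogen synthase, fell from 2434, 3211 and 3099 to 824, 885 and 683, by 1.87 ± 0.18 [1.99] (adjusted p = 6.9e-06), and PGM1, the minor phosphoglucomutase, from 414, 402 and 369 to 99.7, 104 and 79.0, by 2.08 ± 0.27 [2.04]. The 80 h arrays of both genes lay below all their 8 h arrays. GDB1, the debranching enzyme, fell by 1.62 ± 0.28 [1.55]. GAC1, which targets a phosphatase to glycogen synthase, rose by 1.34 ± 0.24 [1.24], and its relative PIG1 by 1.40 ± 0.37 [1.57]. The signal of GPH1, glycogen phosphorylase, was below the background threshold of 22.1 on every 8 h array and on all but 1 of the 80 h arrays, and it did not pass (adjusted p = 0.784).

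Of 11 tested genes for glycerol, 7 [7] fell and 1 [1] rose (63.6% and 9.09%, against 25.9% and 23.0% over all probe sets). The median was -0.69 [-0.64]. GPP1, the main glycerol phosphatase, fell from 928, 2033 and 1909 to 347, 344 and 239.6, by 2.33 ± 0.36 [2.69] (adjusted p = 0.00019). GPD2, the glycerol phosphate dehydrogenase of anaerobic growth, fell from 429, 335 and 356 to 152, 130.2 and 108, by 1.53 ± 0.17 [1.43] (adjusted p = 1.45e-05). GUT1, glycerol kinase and the first step of glycerol use, was the one that rose, from 437, 821 and 785 to 3099, 3179.5 and 3124, by 2.26 ± 0.49 [1.96] (adjusted p = 0.00205).  DAK1, a dihydroxyacetone kinase of glycerol breakdown, and YPR1, a reductase, fell by 0.85 ± 0.16 [0.64] and 0.80 ± 0.13 [0.74].

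The general stress list was split. Of 41 tested targets of Msn2 and Msn4, 18 [17] rose (43.9%) and 7 [8] fell, with a median of 0.25 [0.33]. GRE1, a hydrophilin of desiccation and osmotic stress, stood at 147, 125 and 122 at 8 h and 2434, 2531 and 2386 at 80 h, and rose by 4.23 ± 0.44 [4.31] (adjusted p = 1.15e-05). SIP18, its relative, rose from 2372, 1629 and 1531 to 10764, 10400.0 and 9754, by 2.51 ± 0.34 [2.70]. These genes rose together with PAI3, an inhibitor of vacuolar proteinase A (2.49 ± 0.34 [2.68]), DDR2, a small heat and DNA damage gene (1.94 ± 0.21 [1.81]), and YRO2, a membrane protein (1.77 ± 0.34 [1.42]). HSP26, a small heat shock protein, rose from 1044, 2583 and 2822 to 7512, 8510.4 and 8180.0, by 2.03 ± 0.42 [1.58]. HSP30, a membrane heat shock protein, rose by 0.50 ± 0.13 [0.38]. HSP12, another stress-driven heat shock gene of the list, stood at 10491, 10491 and 10888 and 10246, 11082 and 10764, a difference of 0.01 ± 0.07 [0.00] that did not pass (adjusted p = 0.927). These values lie at the top of the normalized range, which quantile normalization holds fixed, and on the deposited scale HSP12 passed as higher, at 0.44 (adjusted p = 0.00693). CTT1, the cytosolic catalase, did not pass, at -0.04 ± 0.11 [-0.09].

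Chaperones fell in 17 [16] of 34 tested genes and rose in 2 [2] (50.0% and 5.88%, against 25.9% and 23.0% over all probe sets). The median was -0.40 [-0.34]. SSA2, an Hsp70 of growing cells, fell from 1073, 1728 and 1515 to 160.2, 256 and 130.0, by 3.01 ± 0.52 [3.21] (adjusted p = 0.0004). HSC82, the constitutive Hsp90, fell from 4175, 3582 and 3704 to 1466, 1522 and 1565, by 1.33 ± 0.14 [1.26] (adjusted p = 1.51e-05). Their partners fell too: SIS1 by 1.36 ± 0.21 [1.12], SSE1 by 1.23 ± 0.17 [1.28], STI1 by 1.21 ± 0.19 [1.20] and FES1 by 1.15 ± 0.22 [0.91]. SSA2 has near-identical relatives, whose transcripts its probe set may share.

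Of 30 tested genes for defence against oxidants, 13 [12] rose (43.3%) and 5 [5] fell, with a median of 0.36 [0.38] (14 rose and 2 fell on the deposited scale, median 0.61). SOD1, the cytosolic superoxide dismutase, rose from 2248, 2377 and 2332 to 5502, 5619.8 and 5545, by 1.26 ± 0.14 [1.24] (adjusted p = 1.45e-05). The glutathione transferases GTT2 and GTT1 rose by 1.68 ± 0.21 [1.56] and 1.25 ± 0.16 [1.33], the peroxidases GPX1 and TSA2 by 1.37 ± 0.19 [1.23] and 1.32 ± 0.36 [1.04], and the oxidant-sensing factor YAP1 by 1.30 ± 0.28 [1.05]. For SOD1 and GTT1 the arrays within a time lay close together and the times did not overlap.

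Sterol genes were higher at 80 h. Of 27 tested genes for the mevalonate pathway and ergosterol, 17 [13] rose (63.0%) and 1 [1] fell, with a median of 0.58 [0.53] (18 rose and 0 fell on the deposited scale, median 0.65, and 14 and 2 with centred arrays, median 0.42). The 1 fall was lost without 4 of the other 5 arrays. ERG3, the C-5 desaturase, stood at 1195, 1487 and 1397 at 8 h and 4399.7, 4519 and 4638 at 80 h, and rose by 1.74 ± 0.12 [1.65] (adjusted p = 7.31e-07). ERG25 and ERG26, which remove methyl groups, rose by 0.94 ± 0.11 [0.87] and 0.98 ± 0.23 [0.71], and ERG5, the C-22 desaturase, by 0.93 ± 0.11 [0.81]. ERG1, squalene epoxidase, an oxygen-using step, stood at 991, 2463 and 2443 and 3741, 4162 and 4384. It passed with all arrays (1.17 ± 0.37) and not without 8 h replicate 1 (0.74, adjusted p = 0.0828) or without 80 h replicate 2 or 3.

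Of 29 tested hypoxic and sterol import genes, 16 [12] rose (55.2%) and 6 [8] fell, with a median of 0.62 [0.50]. UPC2, the factor that senses sterol, rose from 138, 183 and 173 to 398, 428 and 370.2, by 1.28 ± 0.25 [1.16] (adjusted p = 0.00102). PDR11, a transporter needed for sterol uptake, rose from 118, 151 and 133 to 471, 445 and 475, by 1.79 ± 0.17 [1.71], and HES1, an oxysterol-binding protein, by 1.29 ± 0.20 [1.37]. SUT2 fell by 1.74 ± 0.17 [1.70], and AAC3, the anaerobic ADP/ATP carrier, by 1.39 ± 0.20 [1.47]. HEM13, a haem enzyme gene repressed by oxygen, stood at 571, 985 and 949 and 744, 628 and 539 and did not pass, at -0.36 ± 0.20. Without 8 h replicate 1 it passed as lower, at -0.61 (adjusted p = 0.00892). TIR3, a mannoprotein of anaerobic cells, passed at 1.44 ± 0.49 with all arrays, and did not without that array (0.91, adjusted p = 0.119) or without any 1 of the 80 h arrays.

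Fatty acid genes gave 8 [7] rises and 7 [6] falls among 20 tested (40.0% and 35.0%, against 23.0% and 25.9% over all probe sets). The median was 0.09 [0.07] (5 rose and 7 fell with centred arrays, median -0.06). OLE1, the only fatty acid desaturase, stood at 2521, 4885 and 4771 at 8 h and 8839, 8644 and 8786 at 80 h, and rose by 1.17 ± 0.20 [0.86] (adjusted p = 0.000361). MGA2, which activates OLE1, rose from 600.4, 611 and 538 to 1709, 1766 and 1436, by 1.49 ± 0.11 [1.51] (adjusted p = 1.26e-06). The elongase ELO3 fell by 1.76 ± 0.25 [2.01], ELO1 by 1.54 ± 0.17 [1.55], the fatty acid importer FAT1 by 1.26 ± 0.26 [1.00] and the sphingolipid hydroxylase SUR2 by 1.21 ± 0.19 [1.30]. The activator and its desaturase thus rose while ELO1 and ELO3 fell, and the number risen was 5 without 80 h replicate 3. In phospholipid synthesis 9 [8] of 23 tested genes rose and 4 [2] fell (39.1% and 17.4%). The median was 0.31 [0.19] (9 rose and 1 fell on the deposited scale, median 0.49). INO1, which makes inositol phosphate, stood at 318, 304 and 359 at 8 h and 3131, 3315 and 2884 at 80 h, and rose by 3.25 ± 0.25 [3.23] (adjusted p = 1.23e-06). CHO2 and CHO1, for phosphatidylcholine and phosphatidylserine, rose by 1.25 ± 0.16 [1.37] and 0.84 ± 0.14 [0.86], CDS1, for CDP-diacylglycerol, by 1.00 ± 0.15 [0.80], and the inositol carrier ITR1 by 0.80 ± 0.15 [0.80]. INO2, an activator of INO1, passed with all arrays (1.36 ± 0.41) and not without 8 h replicate 1 (1.04, adjusted p = 0.0631) or without 80 h replicate 1. The number fallen was 1 or 2 without any 1 of the arrays other than 8 h replicate 2.

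Amino acid synthesis fell in 27 [28] of 68 tested genes and rose in 13 [14] (39.7% and 19.1%, against 25.9% and 23.0% over all probe sets). The median was -0.34 [-0.33]. GLN1, glutamine synthetase, stood at 2062, 2967 and 2905 at 8 h and 486, 499 and 438 at 80 h, and fell by 2.46 ± 0.29 [2.63] (adjusted p = 2.58e-05). LYS9 and LYS12, of lysine synthesis, fell by 2.29 ± 0.18 [2.23] and 1.57 ± 0.15 [1.53]. CPA1, of the arginine pathway, rose from 882, 1104 and 1046 to 3989, 4412 and 3513, by 1.98 ± 0.18 [1.88] (adjusted p = 3.8e-06). GDH3, the glutamate dehydrogenase of cells on ethanol, rose by 2.28 ± 0.51 [2.09], and the threonine aldolase GLY1 by 2.58 ± 0.42 [2.16].

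Of 31 tested genes for sulphur and methionine, 14 [14] rose (45.2%) and 4 [6] fell, with a median of 0.40 [0.31] (14 rose and 1 fell on the deposited scale, median 0.54). STR3, cystathionine beta-lyase, rose from 85.7, 85.1 and 103 to 506, 472 and 699.7, by 2.60 ± 0.20 [2.56] (adjusted p = 1.23e-06). MUP1, the main methionine permease, rose from 290.1, 375 and 311 to 903, 992 and 1002, by 1.58 ± 0.15 [1.50] (adjusted p = 5.25e-06). The S-methylmethionine permease MMP1, the methyltransferase MHT1 that uses S-methylmethionine, and the S-adenosylmethionine permease SAM3 rose by 1.60 ± 0.23 [1.87], 1.57 ± 0.19 [1.75] and 1.37 ± 0.26 [1.14]. MET13, for methylenetetrahydrofolate reductase, rose by 2.29 ± 0.60 [1.70]. The number fallen was 2 without 8 h replicate 2 or 3.

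Of 41 tested genes for nitrogen catabolism and permeases, 12 [12] rose and 13 [13] fell (29.3% and 31.7%, near the 23.0% and 25.9% over all probe sets), with a median of -0.08 [-0.20] that turned to 0.06 on the deposited scale. BAP2, a carrier of branched-chain amino acids, stood at 75.2, 99.4 and 115 at 8 h and 560.3, 512 and 507 at 80 h, and rose by 2.47 ± 0.36 [2.30] (adjusted p = 0.000131). ALP1, an arginine permease, rose by 2.76 ± 0.22 [2.66], and TAT1, a carrier of aromatic and branched-chain amino acids, by 1.76 ± 0.18 [1.75]. DAL3 and DAL1, of allantoin breakdown, fell by 2.02 ± 0.34 [1.80] and 1.71 ± 0.30 [1.82], as did DAL7 above, and CHA1, a serine and threonine deaminase, by 1.71 ± 0.22 [1.60]. Among 15 tested aroma genes, 2 [3] rose and 5 [5] fell, 13.3% and 33.3% against 23.0% and 25.9% over all probe sets (4 rose and 4 fell on the deposited scale, median 0.23). EEB1, which makes ethyl esters, rose from 617, 889.5 and 839.5 to 2088, 2152 and 2486, by 1.53 ± 0.14 [1.37] (adjusted p = 4.31e-06). ARO9 and ARO10, the transaminase and decarboxylase that turn aromatic amino acids into fusel alcohols, fell by 1.92 ± 0.16 [1.82] and 0.99 ± 0.17 [1.10]. ATF1, the main alcohol acetyltransferase, stood at 377, 419 and 434 and 423, 495 and 403 and did not pass (adjusted p = 0.553), while ATF2, the other one, fell by 1.20 ± 0.22 [1.21].

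Purine genes rose in 6 [6] and fell in 7 [7] of 23 (26.1% and 30.4%, near the shares over all probe sets). IMD2, for IMP dehydrogenase, fell from 343, 361 and 389 to 79.1, 104 and 81.8, by 2.06 ± 0.37 [2.10] (adjusted p = 0.000546), and ADE3 fell by 1.05 ± 0.14 [1.11]. The salvage genes HPT1, APT1 and AAH1 rose by 1.16 ± 0.12 [1.13], 1.17 ± 0.30 [0.80] and 1.02 ± 0.16 [0.95], and the regulator BAS1 by 1.08 ± 0.19 [0.97]. Pyrimidine genes rose in 2 [2] and fell in 4 [4] of 13, 15.4% and 30.8% against 23.0% and 25.9% over all probe sets (2 rose and 0 fell on the deposited scale, median 0.26). The falls numbered 1 or 2 without 8 h replicate 2, 8 h replicate 3 or 80 h replicate 1. URA7, CTP synthase, rose by 1.02 ± 0.15 [0.95]. Vitamin genes rose in 10 [9] of 21 tested (47.6%) and fell in 1 [1], with a median of 0.45 [0.48] (11 rose and 0 fell on the deposited scale, median 0.68). THI13, of thiamine synthesis, rose from 252, 204 and 201 to 873, 869 and 885, by 2.01 ± 0.18 [2.11] (adjusted p = 3.89e-06). Its probe set may bind near-identical copies. THI73, a putative permease, rose by 2.21 ± 0.22 [2.26], SNZ1 and SNO1, for vitamin B6, by 1.16 ± 0.19 [0.99] and 1.10 ± 0.26 [1.33], and BIO2, biotin synthase, by 0.82 ± 0.12 [0.73].

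Of 15 tested zinc genes, 10 [10] rose (66.7%) and 2 [2] fell, with a median of 0.91 [0.82] (12 rose and 1 fell on the deposited scale, median 0.94). On single arrays the list's median was -0.03, 0.08 and -0.02 at 8 h and 0.80, 0.95 and 0.83 at 80 h. ZAP1, the zinc-sensing activator, stood at 218, 394 and 363 at 8 h and 752, 697 and 684 at 80 h, and rose by 1.18 ± 0.21 [0.91] (adjusted p = 0.000564). ZRT2, the low-affinity zinc carrier, rose from 233, 265 and 238 to 522, 592 and 625, by 1.24 ± 0.20 [1.20] (adjusted p = 0.000299). The IZH genes, membrane proteins tied to zinc and sterol metabolism, were 4 of the 10 that rose. IZH1 rose from 1247, 1860.4 and 1761 to 6567, 6035 and 5924, by 1.95 ± 0.16 [1.77], and IZH2, IZH3 and IZH4 rose by 1.80 ± 0.12 [1.70], 2.04 ± 0.36 [1.84] and 1.34 ± 0.16 [1.43]. The number fallen was 1 without any 1 of the arrays other than 8 h replicate 1 and 80 h replicate 2.

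Phosphate genes rose in 9 [9] and fell in 3 [3] of 24 tested (37.5% and 12.5%, against 23.0% and 25.9% over all probe sets). The median was 0.10 [-0.07] (9 rose and 1 fell on the deposited scale, median 0.32). PHO84, the high-affinity phosphate carrier, stood at 36.0, 46.8 and 30.6 at 8 h and 456, 478 and 631 at 80 h, and rose by 3.79 ± 0.18 [3.77] (adjusted p = 9.13e-08). Its 80 h arrays were all far above its 8 h arrays, which lay near the background threshold of 22.1. PHM8, a phosphatase induced by low phosphate, rose by 1.49 ± 0.19 [1.63], the low-affinity carrier PHO90 by 1.01 ± 0.19 [0.98] and PHO80, the cyclin that holds the pathway off, by 1.11 ± 0.14 [1.15]. Iron and copper genes rose in 10 [9] and fell in 4 [3] of 30 tested (33.3% and 13.3%, against 23.0% and 25.9% over all probe sets). The median was 0.32 [0.34]. TIS11, which destroys mRNAs of iron-using proteins, rose from 19.3, 23.9 and 23.4 to 161, 179.7 and 181, by 2.97 ± 0.31 [2.87] (adjusted p = 1.09e-05), with 2 of its 3 arrays above background at 8 h. FTR1, the high-affinity iron permease, rose by 1.12 ± 0.21 [1.00], FET4, a low-affinity metal carrier, by 0.98 ± 0.17 [0.82], and the iron factor AFT2 by 0.89 ± 0.16 [0.73]. FIT3, a cell wall protein that holds siderophore iron, fell by 1.24 ± 0.19 [1.19], opposite to FTR1.

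Of 53 tested cell wall genes, 16 [12] rose and 12 [15] fell (30.2% and 22.6%, near the 23.0% and 25.9% over all probe sets), with a median of 0.13 [0.03]. Beside NCA3 the sporulation glucan enzyme GAS2 rose by 2.15 ± 0.52 [2.54], with 2 of its 3 arrays above background at 8 h. WSC2, a sensor of wall stress, stood at 508, 655 and 639.8 at 8 h and 130.3, 111 and 123 at 80 h, and fell by 2.30 ± 0.15 [2.41] (adjusted p = 5.08e-07). SUN4, a relative of NCA3 that acts in septation, fell by 2.24 ± 0.34 [2.69], from 142, 349.8 and 386 to 67.4, 51.3 and 53.0. SUN4 thus fell where NCA3 rose. CIS3, a mannoprotein of the wall, fell by 1.92 ± 0.22 [2.12], and GAS3 by 1.91 ± 0.22 [1.96]. FLO11, the flocculin of adhesion and filaments, rose from 302, 319 and 302 to 659.6, 736 and 623, by 1.12 ± 0.22 [1.11] (adjusted p = 0.000883), while the factor TEC1, which activates it, fell by 0.69 ± 0.13 [0.62]. The remaining 8 of 10 tested flocculation and adhesion genes did not pass.

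The vacuolar hydrolase list also holds genes of other function. Its largest rise, of 2.49, was that of PAI3, the proteinase A inhibitor named above. Of its 17 tested genes, 10 [9] rose and 0 [0] fell (58.8% and 0%, against 23.0% and 25.9% over all probe sets). The median was 0.59 [0.54]. NPC2, a sterol-binding protein of the vacuole, rose from 720.5, 1502 and 1608 to 3227, 2954 and 3258, by 1.39 ± 0.26 [1.02] (adjusted p = 0.000774). PRB1, proteinase B, stood at 651, 1124 and 1124 and 2033, 1909 and 1846. It passed with all arrays (1.04 ± 0.32) and not without 8 h replicate 1 (0.78, adjusted p = 0.0711) or without 80 h replicate 1, and APE1, aminopeptidase I, did not pass without 8 h replicate 1 or without 80 h replicate 1 or 2. Of 31 tested autophagy genes, 10 [10] rose and 5 [4] fell (32.3% and 16.1%, against 23.0% and 25.9% over all probe sets). The median was 0.28 [0.41] (12 rose and 3 fell on the deposited scale, median 0.55). ATG1, the kinase that starts autophagy, rose from 197, 250.3 and 293 to 970.5, 882 and 1059, by 1.99 ± 0.25 [1.84] (adjusted p = 3.43e-05). ATG8, which coats the growing membrane, rose by 0.87 ± 0.18 [0.66], ATG32, the receptor for mitochondria, by 1.31 ± 0.18 [1.15], and ATG22, a vacuolar amino acid exporter, by 1.70 ± 0.26 [1.61]. The falls numbered 3 without 80 h replicate 2.

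The proteasome list also holds the polyubiquitin gene UBI4, its largest rise. Of its 37 tested genes, 12 [12] rose and 4 [4] fell (32.4% and 10.8%, against 23.0% and 25.9% over all probe sets). The median was 0.21 [0.26] (13 rose and 2 fell on the deposited scale, median 0.34, and 5 and 4 with centred arrays, median 0.11). The rises numbered 7 without 80 h replicate 1 or 2. UBI4, polyubiquitin, rose from 2259.8, 2060.1 and 1969.7 to 5545, 5545 and 4928, by 1.35 ± 0.12 [1.40] (adjusted p = 2.93e-06), and the proteasome activator BLM10 by 1.34 ± 0.18 [1.44]. Genes for folding in the endoplasmic reticulum fell in 13 [14] of 28 tested and rose in 2 [1] (46.4% and 7.14%, against 25.9% and 23.0% over all probe sets). The rises numbered 1 without any 1 of the 80 h arrays. The list's median was -0.49 [-0.45] (14 fell and 1 rose with centred arrays, median -0.55). KAR2, the Hsp70 of that compartment, fell from 3365, 3082 and 2739 to 1406, 1382 and 1366, by 1.14 ± 0.12 [1.07] (adjusted p = 1.23e-05). ERJ5, one of its co-chaperones, fell by 2.29 ± 0.17 [2.17], the glucosidase CWH41 by 1.23 ± 0.19 [1.12], and DER1, of protein disposal, by 1.08 ± 0.19 [0.98]. HAC1, the factor that drives these genes when folding fails, stood at 6.31, 238 and 181 at 8 h and 1056, 752 and 840.5 at 80 h. Its difference of 3.75 ± 1.42 passed with all arrays, and it was 2.07 (adjusted p = 0.187) without 8 h replicate 1, the array with the low value. The call was lost as well without any 1 of the 80 h arrays (adjusted p = 0.0815 to 0.101).

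Markers of other cell states were mostly dim. Of the haploid markers, STE2, STE3, STE6, BAR1 and MFA2 did not pass. MFA1, for the a-factor, rose from 54.3, 26.2 and 27.6 to 174, 226 and 204, by 2.56 ± 0.37 [2.90] (adjusted p = 0.000117), and FUS1, of cell fusion, by 0.92 ± 0.26 [0.94]. The mating and haploid-specific list had 7 [8] rises and 1 [0] falls among 21 tested genes (33.3% and 4.76%, against 23.0% and 25.9% over all probe sets). Its median was 0.21 [0.35] (7 rose and 2 fell with centred arrays, median 0.20). FAR1, of the mating pathway, rose by 1.53 ± 0.20 [1.68]. FUS3 and SST2 rose from mean signals of 22.7 and 31.3 to 66.9 and 64.5. FUS2 fell by 1.02 [0.72], a call lost without any 1 of the arrays other than 8 h replicate 2. Of the sporulation markers, IME1, NDT80, SPS4, SPR3 and DIT1 did not pass. SPS100, of the spore wall, rose from 137, 209 and 191 to 624, 608 and 670.4, by 1.85 ± 0.23 [1.67] (adjusted p = 3.39e-05). SPO11 also rose, from a dim mean signal of 19.3 at 8 h to 38.9 at 80 h. Its call was lost without 8 h replicate 2, 80 h replicate 2 or 80 h replicate 3. The meiosis and sporulation list had 13 [13] rises and 2 [0] falls among 44 tested genes. These were 29.5% and 4.55%, so the share risen was near the 23.0% over all probe sets and the share fallen below the 25.9%. The list's median was 0.28 [0.49] (12 rose and 6 fell with centred arrays, median 0.12). The list had 0 falls without 80 h replicate 1 or 80 h replicate 2. DON1, of the spore membrane, rose by 2.17 ± 0.23 [2.36], and MPC54 by 1.64 ± 0.31 [2.02]. The mean signals of REC102 and SSP2 went from 17.1 and 18.9 at 8 h to 56.4 and 50.8 at 80 h. IME1, the master regulator of meiosis, stood at 47.1, 45.0 and 45.7 at 8 h and 37.7, 33.6 and 39.2 at 80 h, with no rise.

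The neighbouring times place 80 h. Between 80 and 102 h, 405 probe sets (7.59% of those tested) rose and 446 (8.36%) fell. Both comparisons use the 80 h arrays, so their values are given side by side and not correlated. Against 8 h, the median of ribosome biogenesis passed through 0.08 (30 h) and 0.33 (60 h) to 0.72 (80 h) and 0.95 (102 h), and 24 of its genes rose between 80 and 102 h. The median of cytosolic ribosomal proteins was -0.38, -1.37, -0.85 and -0.61 at the same times, so its lowest value was at 60 h, where 2 of the 3 arrays had low 5-prime signal (mean log2 ratios of -4.08 and -1.66). Between 80 and 102 h, 20 of the list's genes rose and 0 fell. Histones lay at -0.42, -0.79, -0.89 and -0.93, and mitosis genes at -0.44, -0.78, -0.93 and -0.97. Zinc genes reached 0.91 at 80 h and 0.19 at 102 h, and 4 of them fell between these times. Of chaperones, 10 rose and 0 fell between 80 and 102 h.

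Single genes that differed between 80 and 102 h included some of those above. ADY2 fell by 1.48 between these times (adjusted p = 0.00334), while PCK1 rose by 0.97 (adjusted p = 0.00136). PHO84 rose further, by 1.13 (adjusted p = 0.00202). RPP0 and RPS7B rose again, by 1.12 and 1.18, and GPD2 by 0.99. SWI4 fell by 1.41 and TIS11 by 1.33. For NCA3, AQY1, FBP1 and EGT2 the difference between 80 and 102 h was -0.17, 0.21, 0.17 and 0.52 and did not pass.

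**Figure D4:**
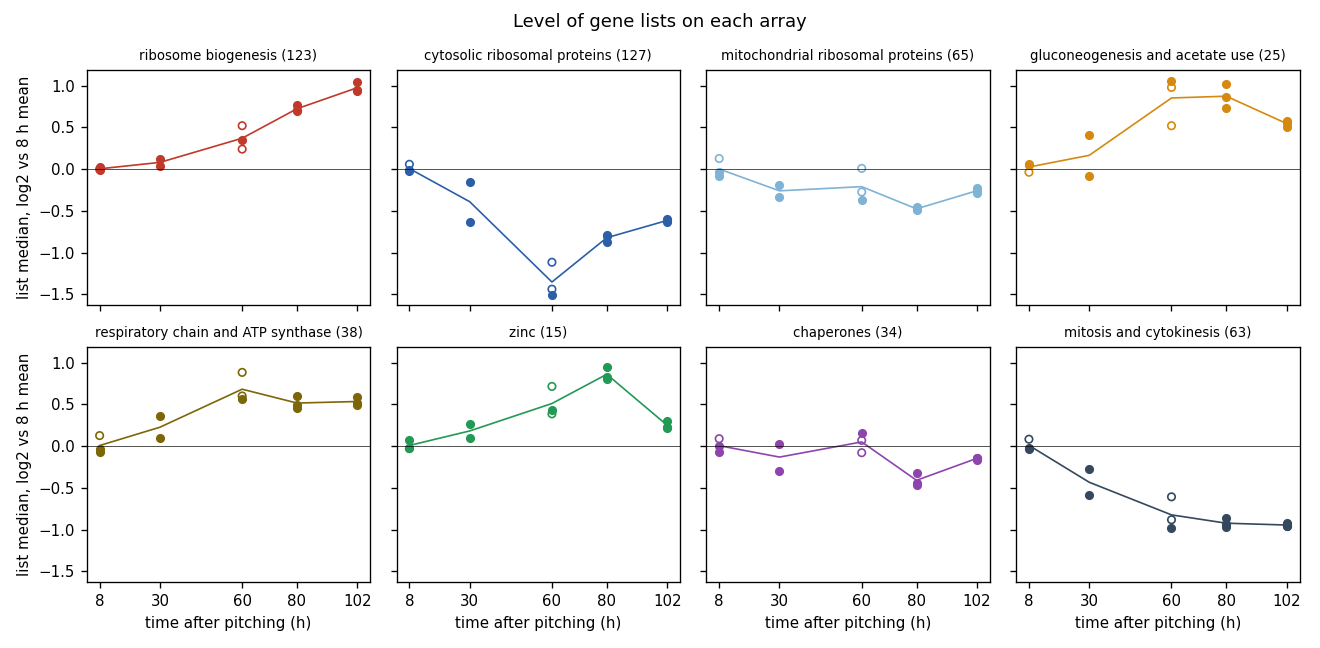
Median over the members of 8 gene lists of log2 signal minus the mean at 8 h, for each array (points; open for the arrays with low 5-prime signal) at 5 times, with the number of genes in brackets and a line through the mean of each time's arrays. Ribosome biogenesis reaches 0.71, 0.77 and 0.70 on the 80 h arrays, ribosomal proteins are lowest at 60 h, and zinc genes are highest at 80 h.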

How the data were processed

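The authors deposited signal intensities on a linear scale, 1 per probe set and array, and the submitters' processing notes name GCOS 5.0. The sources used here do not give the scaling target. Probe sets took their genes from the platform annotation, with symbols brought up to date through a table of assembly R64. Because array medians spanned 0.777 on the log2 scale, values were quantile normalized, floored at 5.58 (the median of the dimmer part of all probe sets) and logged. The background threshold, the 95th percentile of that part, was 22.1. One limma 3.58.1 fit (R 4.3.3) held all 14 arrays at 5 times, with an intensity trend and Benjamini-Hochberg adjustment over 5338 probe sets. A gene below background on all arrays of a time has only a lower bound for its fold. For the 40 genes with more than 1 tested probe set the brightest was used, and 0 such genes had sets called in opposite directions.

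The comparison, the 45 gene lists and the genes named were chosen with earlier results of these data known. Named were the 12 largest rises and falls past the test with arrays that do not overlap, up to 6 members of each list with the largest change, and 35 fixed genes, in all 301 tested. Lists are described by counts and medians and have no test of their own. On simulated data for 80 h against 8 h (5338 probe sets, 200 changed), a log2 change of 1 was recovered in 73% and of 2 in 95% of cases, with 3.45% false calls. The simulated noise was independent and of equal spread on all arrays. It had no array like 8 h replicate 1, and far fewer changes than the 49.0% called in the data. These rates check the code and are not the error rates of the comparison. Deviations from the mean of a time correlated at -0.12, -0.00 and -0.12 between same-numbered arrays, and at -0.08 to 0.13 between the others. Deviations sum to 0 within a time and 8 h replicate 1 stood apart. The correlations therefore cannot settle whether replicate numbers pair the samples, and the labels do not say. The number of arrays limits the precision. Other scalings, floors and filters, a 5-prime to 3-prime covariate, the replicate block, a stricter threshold and leaving out each array were tried as alternatives.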

Additional observations from a re-analysis of the deposited data

How the results depend on the processing

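Of the 276 named genes that passed between 8 and 80 h, 242 kept their call and direction under every alternative run, and 0 changed direction. Probe sets higher at 80 h numbered 988 to 1226 with 1 array left out, and those lower 1129 to 1253. They numbered 1660 and 1736 without the 3 low 5-prime arrays of the series, 1626 and 1648 with the 5-prime to 3-prime ratio as a covariate, 1290 and 1476 from the arrays of both times alone, and 1777 and 1860 when 8 h replicate 1 was also left out of those. On the deposited scale 853 were lower, against 1383, and at a threshold of 0.01, 860 were higher and 962 lower. With the replicate number as a block the counts were 1297 and 1431, and the block ended the call of 0 named genes and added 2, HAP4 and ICL1. Other floors, filters and leaving out shared probe sets moved neither count by 1.5 times.

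Between 80 and 102 h, 851 of the 5338 probe sets tested (15.9%) passed in either direction. Many genes were named for a large change measured on the same 80 h arrays. Their share among the named genes therefore cannot be weighed against that over all probe sets. Of the 301 genes named and tested, 63 passed between 80 and 102 h. The count was 124 without the 3 low 5-prime arrays, 114 with the covariate, 30 at 0.01, and 33 to 73 with 1 array left out (33 without 80 h replicate 3, 37 without 80 h replicate 2). The cause of these differences was not tested.

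Signs changed only for 12 genes that did not pass. On the deposited scale these were STE6 (0.195), ADH1 (0.0902), BAR1 (-0.056), CIT2 (0.0337), CTT1 (0.231), HXK1 (0.154), PDC1 (0.201) and SPR3 (-0.257). With centred arrays they were BAR1 (-0.287), JEN1 (-0.121) and SPR3 (-0.488). With the covariate they were STE6 (0.0792) and SPS4 (0.0568), and with the floor at the background threshold GPH1 (0.0327) and SPR3 (-0.0842). GPH1 (0.036) and STE6 (0.0717) turned without the 3 low 5-prime arrays and from both times alone without 8 h replicate 1. With 1 array left out, GPH1 ranged from -0.785 to 0.286, ADH1 from -0.0202 to 0.0147, STE6 from -0.203 to 0.0717, HSP12 from -0.0164 to 0.0402, BAR1 from -0.0129 to 0.326 and SPR3 from -0.286 to 0.281.

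A block for chip lot or station and the planned promoter motif shares were not run, since the files used here hold neither those fields nor promoter sequences.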
